A study of Mus musculus with 6 samples.

Results

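Transcripts of 10 cytokine genes of the interleukin and TNF families were followed in primary mouse Sertoli cells in culture, the somatic supporting cells of developing germ cells in the testis. The genes were Il1a, Il1b, Il1rn, Il33, Tnf, Il6, Lif, Il11, Csf2 and Csf3, selected by name with earlier results of these data known. Counts of members beside shares of all genes are thus descriptions and not independent evidence. Each gene was matched to its row among the 29275 genes of the deposited RNA sequencing tables. The study set 3 libraries labelled Arhgef15 cKO, from mice in which the guanine nucleotide exchange factor gene Arhgef15 was conditionally deleted in Sertoli cells, beside 3 libraries labelled WT, from wild-type mice. All 6 cultures were kept in the same medium with serum and EGF, and no other treatment was named. Age, strain, the Cre driver, the deleted exons and the number of animals per culture were not stated in the labels. The libraries are called cKO replicates 1 to 3 and WT replicates 1 to 3, after their labels.

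These genes encode messengers of inflammation and, in Il1rn, an antagonist. IL-1 alpha (Il1a) and IL-1 beta (Il1b) activate the receptor IL1R1, which signals through MYD88 to NF-kB, and the antagonist IL1RN occupies the same receptor without activating it; IL-33 (Il33) is an IL-1 relative released from damaged cells, with the receptor IL1RL1. TNF acts through the receptors TNFRSF1A and TNFRSF1B, and IL-6, LIF and IL-11 share the signalling chain gp130 (Il6st), which activates STAT3. GM-CSF (Csf2) and G-CSF (Csf3) are growth factors of macrophages and granulocytes. In the rat testis, Sertoli cells are a known source of IL-1 alpha.

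The promoters of the members were searched for the AP-1 motif (TGACTCA or TGAGTCA, which are the same site read on either strand) and for the kappaB motif of NF-kB in the 250 bases before each annotated start, on both strands. The kappaB motif was GGGRNNYYCC, where R is A or G, Y is C or T and N is any base. RefSeq promoters (build GRCm38.p6) matched 9 of the 10 genes, with 13 starts in all; Csf3 had no entry. An AP-1 match was present in 5 of these 9 genes, where 5.16% of all 27025 genes and 4.46% of all 32851 promoters of that table hold it. A kappaB match was present in 2 of these 9 genes, Il6 and Lif, where 8.23% of all genes and 7.25% of all promoters hold it. The 5 promoters with an AP-1 match are shown with AP-1 and kappaB matches in capitals, each ending at the base before the start.
Il1a (chr2:129309973-129310222, minus strand): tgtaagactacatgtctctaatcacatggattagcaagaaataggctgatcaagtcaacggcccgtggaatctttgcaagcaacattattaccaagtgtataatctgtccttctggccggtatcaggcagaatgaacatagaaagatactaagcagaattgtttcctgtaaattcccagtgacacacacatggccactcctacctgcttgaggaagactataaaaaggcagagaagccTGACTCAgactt
Il1rn (chr2:24336610-24336859, plus strand): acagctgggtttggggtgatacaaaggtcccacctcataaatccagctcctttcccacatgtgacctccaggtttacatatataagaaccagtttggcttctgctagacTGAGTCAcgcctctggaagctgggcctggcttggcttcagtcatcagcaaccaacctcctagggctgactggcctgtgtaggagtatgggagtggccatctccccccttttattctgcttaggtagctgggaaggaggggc
Il6 (chr5:30012864-30013113, plus strand): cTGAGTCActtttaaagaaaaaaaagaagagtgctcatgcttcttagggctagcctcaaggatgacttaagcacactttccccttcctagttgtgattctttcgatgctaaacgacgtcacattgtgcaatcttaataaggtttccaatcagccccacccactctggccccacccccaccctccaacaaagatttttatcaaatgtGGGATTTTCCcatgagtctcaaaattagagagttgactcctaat
Lif (chr11:4257318-4257567, plus strand): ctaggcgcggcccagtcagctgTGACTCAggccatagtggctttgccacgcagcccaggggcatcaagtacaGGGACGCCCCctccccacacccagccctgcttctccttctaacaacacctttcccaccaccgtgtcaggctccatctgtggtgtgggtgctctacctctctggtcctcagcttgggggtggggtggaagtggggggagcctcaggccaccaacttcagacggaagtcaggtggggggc
Il11 (chr7:4778142-4778391, minus strand): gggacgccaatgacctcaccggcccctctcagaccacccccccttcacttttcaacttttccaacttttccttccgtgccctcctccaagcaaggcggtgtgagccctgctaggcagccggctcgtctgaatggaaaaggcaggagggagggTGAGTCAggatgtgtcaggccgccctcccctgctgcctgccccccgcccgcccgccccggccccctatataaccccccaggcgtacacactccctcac
Counted from the start, the AP-1 match lay at -12 to -6 in Il1a, -141 to -135 in Il1rn, -249 to -243 in Il6, -228 to -222 in Lif and -98 to -92 in Il11. The kappaB match lay at -44 to -35 in Il6 and -178 to -169 in Lif, apart from the AP-1 match in both. Il1rn and Il11 had a match at 1 of their 3 and 2 annotated starts. A match describes letters only, and occupancy by a factor was not measured.

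Depth was 16790000 to 20090000 fragments in the libraries labelled cKO and 18750000 to 20320000 in WT, as read from the step between neighbouring values. Arhgef15 was listed at 0.501, 0.322 and 0.338 FPKM in cKO replicates 1, 2 and 3, and at 0.123, 0.0237 and 0.349 FPKM in WT replicates 1, 2 and 3, so its level was no lower under the cKO label (limma, adjusted p = 0.903). Arhgef15 stayed below 1 FPKM in every library and below the filter, so this p comes from the same model over all 29275 genes. The cultures also held transcripts of other cell types. A low value over the whole gene therefore need not report a deletion of some exons in Sertoli cells, and the groups are named by their labels. WT replicate 3 stood apart from the other WT libraries. Over the 12284 tested genes its root mean square log2 difference was 0.96 from WT replicate 1 and 0.78 from WT replicate 2, against 0.54 to 0.65 from the cKO libraries and 0.51 between WT replicates 1 and 2. For the members and the lists of genes around them, but not the cell type markers, calls that change without WT replicate 3 are therefore also given. The size of a difference can change without its call.

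All 10 cytokines had a higher mean log2 level in the libraries labelled cKO. Of these, 0 of 10 passed at an adjusted p under 0.05 (limma on log2(FPKM + 1), adjusted p from 0.730 to 0.880). In the same fit 2 of 12284 genes passed at an adjusted p under 0.05, which is 0.0163%, and 0 of them were higher. At an unadjusted p under 0.05 there was 1 member, Lif, against 837 genes or 6.81% of those tested. The median log2 difference of the members was 1.84, with a range of 0.95 to 2.91, beside 0.08 for all tested genes. A higher mean in cKO was found in 59.8% of tested genes. The groups overlapped for all 10 members, while the lowest cKO value lay above the highest WT value in 6.28% of tested genes. A gene was tested if it reached 1 FPKM in 3 or more of the 6 libraries, and all 10 members did. There were 10, 10 and 9 members at that level in cKO replicates 1, 2 and 3, and 3, 6 and 10 in WT replicates 1, 2 and 3.

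**Figure D1:**
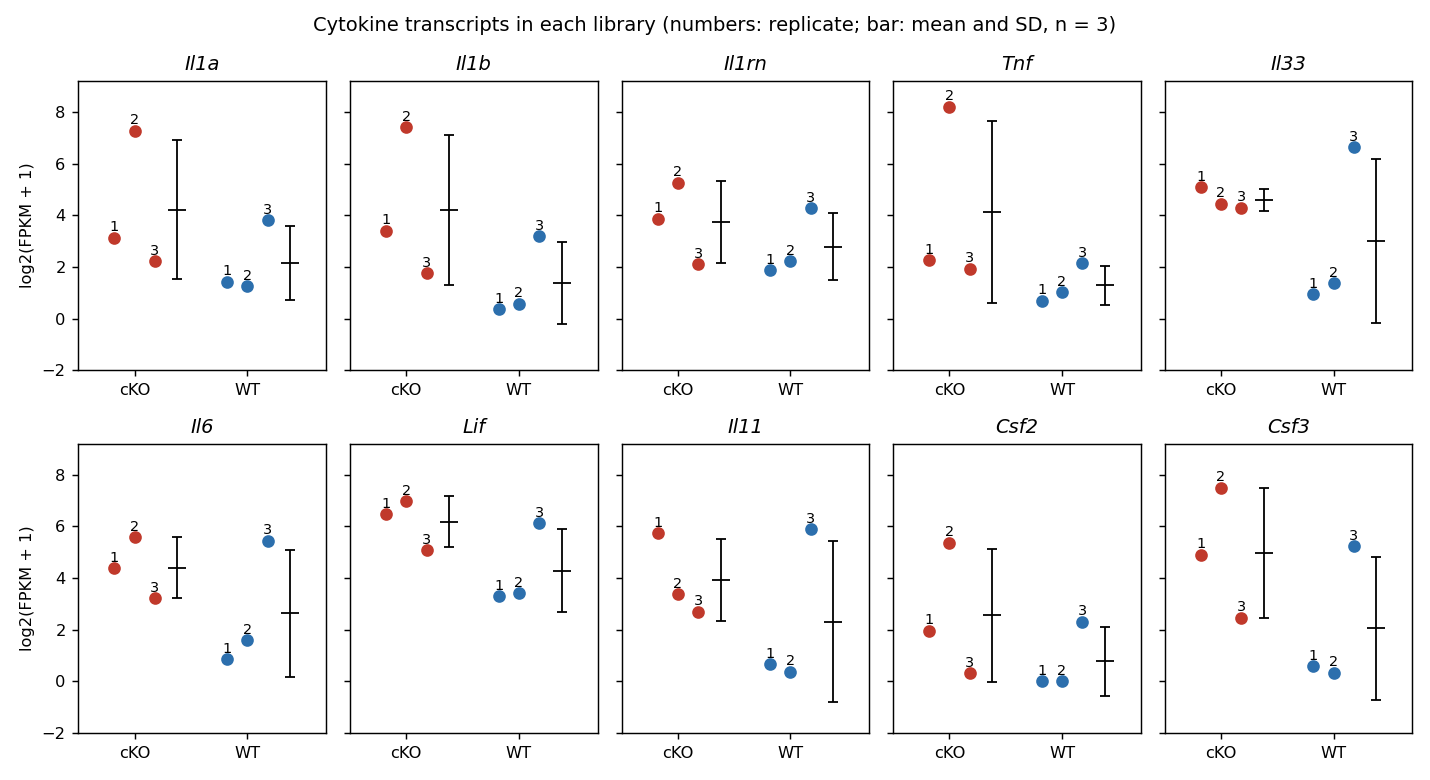
Each panel plots log2(FPKM + 1) of a cytokine gene in the 3 cKO libraries (red, left) and the 3 WT libraries (blue, right), with replicate numbers at the points and the group mean and SD as bars. WT replicates 1 and 2 lie low and WT replicate 3 lies among or above the cKO points; cKO replicate 2 is far above the others for Tnf, Il1a and Il1b.

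Libraries of the same label differed widely. Summed over the 10 genes, the level was 258.9, 1078 and 82.1 FPKM in cKO replicates 1, 2 and 3, and 16.9, 20.3 and 353 FPKM in WT replicates 1, 2 and 3. WT replicates 1 and 2 were the lowest pair for 9 of 10 members, an order found in 22.7% of tested genes. The exception was Il1rn, for which cKO replicate 3 lay between them. WT replicate 3 was above cKO replicate 3 for all 10 members and above cKO replicate 1 for 7. Within the cKO libraries, replicate 3 was lowest for all 10 members, against 27.2% of tested genes. The highest library was cKO replicate 2 for 8 members, against 9.86% of tested genes, and WT replicate 3 for Il11 and Il33, against 25% of tested genes. Over the members, cKO replicate 1 and WT replicate 3 differed by a root mean square of 0.68 on the log2 scale and WT replicates 1 and 2 by 0.34. The other 13 pairs of libraries differed by 1.65 to 5.33.

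**Figure D2:**
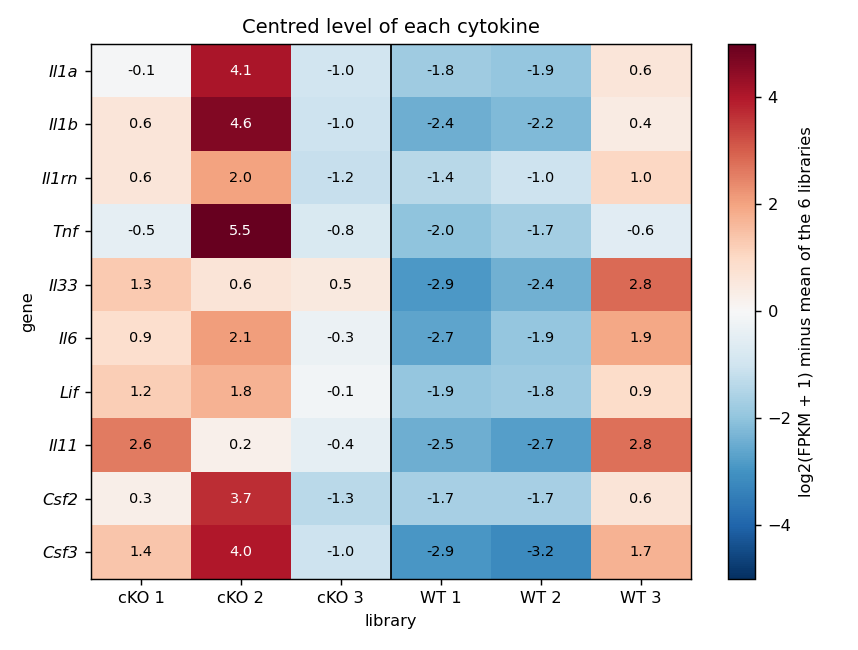
The heat map gives log2(FPKM + 1) of each cytokine (rows) minus its mean over the 6 libraries, for the cKO libraries left of the line and the WT libraries right of it. Tnf reaches 5.49 above its mean in cKO replicate 2, and Il33 and Il11 have their highest values, 2.84 and 2.77, in WT replicate 3.

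Among the IL-1 ligands, cKO replicate 2 set the group mean. Il1a (ENSMUSG00000027399), the membrane-associated and nuclear form of IL-1, was listed at 7.74, 154.4 and 3.68 FPKM in cKO replicates 1, 2 and 3 and at 1.68, 1.38 and 13.0 FPKM in WT replicates 1, 2 and 3. Both cKO replicates 1 and 3 thus lay below WT replicate 3. The means were 55.3 ± 85.9 FPKM in cKO and 5.35 ± 6.62 FPKM in WT libraries (SD, n = 3 each), a log2 difference of 2.05 (SE 1.30, limma adjusted p = 0.814). Without cKO replicate 2 the difference was 0.52 (limma, adjusted p = 0.9998).

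Il1b (ENSMUSG00000027398), the form secreted after cleavage by caspase-1, was listed at 9.52, 170.1 and 2.40 FPKM in cKO replicates 1, 2 and 3 and at 0.280, 0.484 and 8.15 FPKM in WT replicates 1, 2 and 3. The 2 lowest WT values rested on 10 and 18 fragments, and WT replicate 3 again lay between the cKO libraries. Its log2 difference was 2.82 (SE 1.41, limma adjusted p = 0.755), and 1.21 without cKO replicate 2.

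Il1rn (ENSMUSG00000026981), the receptor antagonist, was the member with the smallest difference. It was listed at 13.6, 37.4 and 3.27 FPKM in cKO replicates 1, 2 and 3 and at 2.65, 3.66 and 18.5 FPKM in WT replicates 1, 2 and 3, a log2 difference of 0.95 (SE 0.89, limma adjusted p = 0.880). The level of Il1rn divided by the summed level of Il1a and Il1b was 0.790, 0.115 and 0.538 in cKO replicates 1, 2 and 3, and 1.36, 1.97 and 0.873 in WT replicates 1, 2 and 3. The antagonist transcript was below the summed agonists in all 3 cKO libraries and in WT replicate 3, and above them in WT replicates 1 and 2. This ratio was set up after the values were seen and has no test.

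Il33 (ENSMUSG00000024810), the alarmin of the family, was one of the 2 members highest in WT replicate 3. It was listed at 33.2, 20.7 and 18.6 FPKM in cKO replicates 1, 2 and 3 and at 0.924, 1.60 and 99.0 FPKM in WT replicates 1, 2 and 3. The cKO libraries were close to each other, and the WT libraries held both the lowest and the highest values of the 6. The mean FPKM was lower in cKO, at 24.2 ± 7.86 against 33.8 ± 56.4 in WT (SD, n = 3 each), while the mean on the log scale was higher, with a log2 difference of 1.62 (SE 1.36, limma adjusted p = 0.866). The direction of Il33 thus depends on the scale of the mean.

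Tnf (ENSMUSG00000024401), which encodes the founding ligand of its family, was listed at 3.78, 292.5 and 2.82 FPKM in cKO replicates 1, 2 and 3 and at 0.618, 1.03 and 3.42 FPKM in WT replicates 1, 2 and 3. It was thus 77.4-fold higher in cKO replicate 2 than in cKO replicate 1. The other 5 libraries stayed below 4 FPKM, and WT replicate 3 lay between cKO replicates 1 and 3. The log2 difference was 2.84 (SE 1.53, limma adjusted p = 0.770), and 0.81 without cKO replicate 2. In that library Tnf made up 27.1% of the summed FPKM of the 10 members. In cKO replicates 1 and 3 and in WT replicates 1 and 2, Lif had the highest level among the members.

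Lif, Il6 and Il11 are the members that signal through gp130. Lif (ENSMUSG00000034394), best known for keeping mouse embryonic stem cells undifferentiated in culture, was listed at 87.5, 125.4 and 32.8 FPKM in cKO replicates 1, 2 and 3 and at 8.85, 9.57 and 68.9 FPKM in WT replicates 1, 2 and 3. The means were 81.9 ± 46.6 FPKM in cKO and 29.1 ± 34.5 FPKM in WT libraries (SD, n = 3 each). Its log2 difference of 1.90, with an SE of 0.81, had the smallest p of the members (limma, unadjusted p = 0.0493, adjusted p = 0.730).

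Il6 (ENSMUSG00000025746), the acute phase inducer, was listed at 19.7, 47.1 and 8.30 FPKM in cKO replicates 1, 2 and 3 and at 0.813, 2.01 and 42.6 FPKM in WT replicates 1, 2 and 3. WT replicate 3 was close to the highest cKO library, and WT replicates 1 and 2 were below every other library. The log2 difference was 1.76 (SE 1.17, limma adjusted p = 0.819).

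Il11 (ENSMUSG00000004371), a gp130 ligand of stromal and epithelial cells, was listed at 52.2, 9.33 and 5.45 FPKM in cKO replicates 1, 2 and 3 and at 0.589, 0.296 and 58.4 FPKM in WT replicates 1, 2 and 3. Here cKO replicate 1 and WT replicate 3 were high together, and cKO replicate 2 was low among the cKO libraries relative to its place for Tnf or Il1b. The means of 22.3 ± 26.0 FPKM in cKO and 19.7 ± 33.4 FPKM in WT overlapped widely (SD, n = 3 each), and the Il11 log2 difference was 1.62 (SE 1.48, limma adjusted p = 0.878).

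Csf3 (ENSMUSG00000038067), the granulocyte growth factor, was listed at 28.8, 180.4 and 4.51 FPKM in cKO replicates 1, 2 and 3 and at 0.491, 0.254 and 36.8 FPKM in WT replicates 1, 2 and 3. WT replicate 3 lay above cKO replicates 1 and 3. The log2 difference of Csf3 was 2.91 (SE 1.59, limma adjusted p = 0.772), with 1.63 without cKO replicate 2 and 4.502 without WT replicate 3. Csf2 (ENSMUSG00000018916) was the least abundant member, at 2.90, 40.4 and 0.249 FPKM in cKO replicates 1, 2 and 3 and at 0, 0 and 3.94 FPKM in WT replicates 1, 2 and 3. Its value in cKO replicate 3 rested on 4 fragments, and 3 fragments, taken as the one-sided 95% upper limit for a count of 0, correspond to 0.2 and 0.192 FPKM in WT replicates 1 and 2. The value of cKO replicate 3 lay above both limits, but the 95% Poisson interval of its count, 1.09 to 10.2 fragments, reached below 3 fragments. Whether cKO replicate 3 differed from these WT libraries was not tested. The log2 difference of Csf2 was 1.78 (SE 1.24, limma adjusted p = 0.829).

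Leaving out WT replicate 3 changed the call for 3 members. Then Il33 (log2 difference 3.45, SE 0.30, limma adjusted p = 0.00767), Lif (2.82, SE 0.51, adjusted p = 0.0349) and Il6 (3.17, SE 0.63, adjusted p = 0.0447) passed as higher in cKO, with 304 of 12284 genes or 2.47% higher in that fit. For Il1a, Il1b, Il1rn, Tnf, Il11, Csf2 and Csf3 the adjusted p stayed between 0.0676 and 0.313 in that fit. Without both WT replicate 3 and cKO replicate 2 the same 3 members passed, at adjusted p = 0.0137 for Il33, 0.0426 for Lif and 0.0382 for Il6 (limma), with 1.58% of genes higher. Without cKO replicate 2 alone the adjusted p was 0.9998 for all 10 members (limma), and 0% of genes were called higher. These libraries were singled out after their values were seen, and the 3 calls hold for the fits without WT replicate 3 only.

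**Figure D3:**
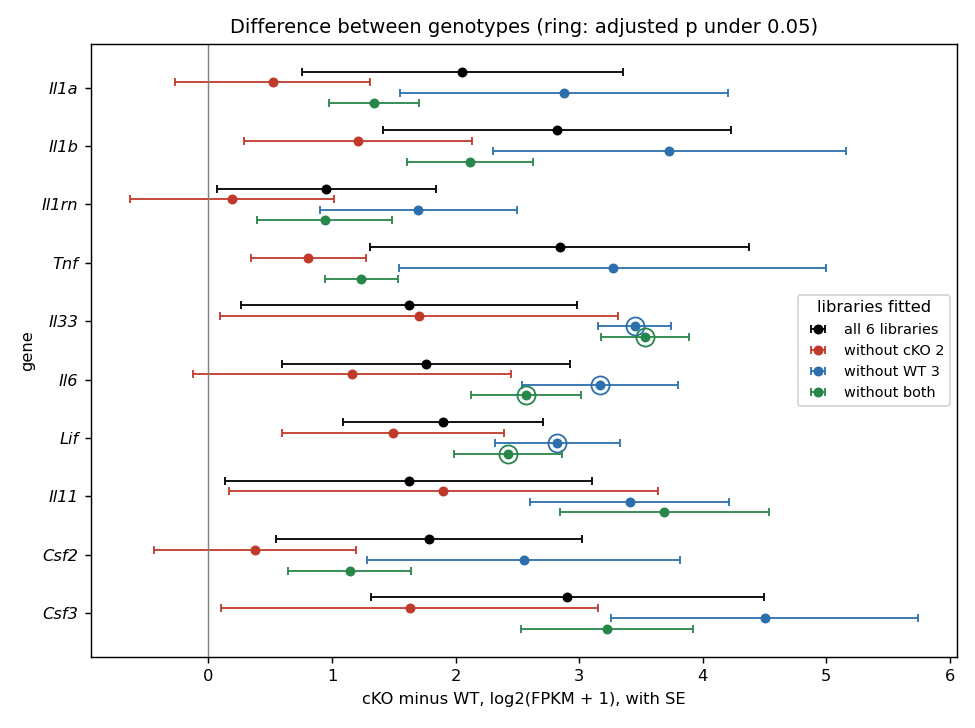
Points give the log2(FPKM + 1) difference, cKO minus WT, of each cytokine with its SE, fitted on all 6 libraries or without cKO replicate 2, WT replicate 3 or both, and rings mark an adjusted p under 0.05. Rings appear for Il33, Il6 and Lif where WT replicate 3 is left out, and removing cKO replicate 2 brings Il1a, Il1rn and Csf2 to 0.52, 0.19 and 0.37.

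The members fell into sets with similar profiles. The measure of likeness was the root mean square difference between mean-centred log2(FPKM + 1) profiles over the 6 libraries, given as a description. The closest pairs were Il1a with Csf2 (0.29), Il1a with Il1b (0.47) and Il6 with Lif (0.56), and Il11 was closest to Il33 (0.71). Csf2 was at 0, 0 and 0.249 FPKM in WT replicates 1 and 2 and cKO replicate 3, where the added 1 flattens its profile. With a pseudocount of 0.1 the log2 difference was 3.35 for Csf2 and 2.35 for Il1a. The order of these pairs thus holds for a pseudocount of 1 only, and likeness was not computed for others. The most distant pair was Il11 with Tnf (2.87). The promoters of Il6 and Lif, shown above, both held an AP-1 and a kappaB match, and neither motif was found in the windows of Csf2, Il1b, Tnf and Il33. Sites that depart from these exact motifs, or lie beyond the 250 bases, were not searched, so these genes are not shown to lack them. The pairs of Il1a with Csf2, Il1a with Il1b, and Il11 with Il33 each joined a gene with an AP-1 match to a gene without. Whether motifs go with profiles was not tested.

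Among other tested genes, the nearest profiles were sought for Tnf, Lif and Csf3, the 3 members with the highest mean FPKM over the 6 libraries. Tnf held that rank through cKO replicate 2, since it stayed below 4 FPKM elsewhere. Nearest to Csf3 were Cxcl1 (0.49) and Cxcl2 (0.50), both neutrophil attractants, and Pglyrp3 (0.76), a peptidoglycan recognition protein gene. Cxcl1 was listed at 153.0, 1011 and 52.7 FPKM in cKO replicates 1, 2 and 3 and at 6.0, 11.8 and 162.9 FPKM in WT replicates 1, 2 and 3. Nearest to Tnf were the chemokine gene Ccl4 (0.74), Acod1 (0.80), which encodes the itaconate-making enzyme of activated macrophages, and the immunoglobulin segment Igkv6-15 (0.81). Acod1 was listed at 2.07, 45.9 and 1.82 FPKM in cKO replicates 1, 2 and 3 and at 0.102, 0.254 and 2.68 FPKM in WT replicates 1, 2 and 3. Nearest to Lif were the collagen gene Col5a3 (0.33), the uridine phosphorylase gene Upp1 (0.37) and Stac2 (0.37). Genes without a symbol, predicted or clone-named genes and pseudogenes were left out. Candidates were the remaining genes varying at least 0.5 times as much as the member, 96 for Csf3, 76 for Tnf and 980 for Lif.

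Receptor transcripts varied over a narrower range than their ligands. Of 14 receptor genes 12 were tested and 0 passed in either direction (limma, 0 also at an unadjusted p under 0.05). Their median log2 difference was 0.02 with a range of -0.83 to 0.74, beside 0.08 for all tested genes. Tnfrsf1a, the broadly expressed TNF receptor, was listed at 83.6, 67.8 and 99.9 FPKM in cKO replicates 1, 2 and 3 and at 105.0, 98.6 and 69.6 FPKM in WT replicates 1, 2 and 3, so the groups overlapped. The IL-1 receptor accessory chain Il1rap was at 2.07 to 4.32 FPKM in cKO and at 2.04 to 3.59 FPKM in WT libraries. The IL-1 receptor Il1r1 had 16.2 ± 2.61 FPKM in cKO and 16.8 ± 6.49 FPKM in WT libraries, and the gp130 gene Il6st 36.4 ± 9.30 FPKM in cKO and 50.3 ± 27.0 FPKM in WT libraries (SD, n = 3 each).

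Tnfrsf1b, the TNF receptor of leukocytes and endothelium, had its highest value in the library where Tnf was highest. It was listed at 41.6, 78.0 and 22.8 FPKM in cKO replicates 1, 2 and 3 and at 16.6, 19.1 and 47.3 FPKM in WT replicates 1, 2 and 3 (limma, adjusted p = 0.829). The IL-33 receptor Il1rl1 was low, with 1.48 ± 0.775 FPKM in cKO and 0.680 ± 0.490 FPKM in WT libraries (SD, n = 3 each). The IL-11 receptor chain Il11ra1 was listed at 9.28, 7.01 and 8.63 FPKM in cKO replicates 1, 2 and 3 and at 21.8, 21.2 and 7.74 FPKM in WT replicates 1, 2 and 3, a log2 difference of -0.83 (SE 0.39, limma adjusted p = 0.755). WT replicate 3 again lay with the cKO libraries, and without it this receptor passed as lower (limma, adjusted p = 0.0243), with 1.42% of all genes lower in that fit. Without WT replicate 3 and cKO replicate 2 together it did not pass (limma, adjusted p = 0.0645). Lifr, the LIF receptor, had 3.80 ± 0.522 FPKM in cKO and 4.93 ± 1.28 FPKM in WT libraries, and Il6ra stayed between 1.80 and 3.84 FPKM in all 6. The GM-CSF receptor chains Csf2ra and Csf2rb were at 2.01 to 7.19 FPKM in cKO and 3.12 to 7.11 FPKM in WT libraries. Csf2rb is uncertain, since how the authors counted fragments shared with its close copy Csf2rb2 is not stated. Csf3r, the G-CSF receptor of granulocytes, was below the filter, at 0.262 to 1.98 FPKM in cKO and 0.227 to 0.399 FPKM in WT libraries, with its highest value in cKO replicate 2.

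**Figure D4:**
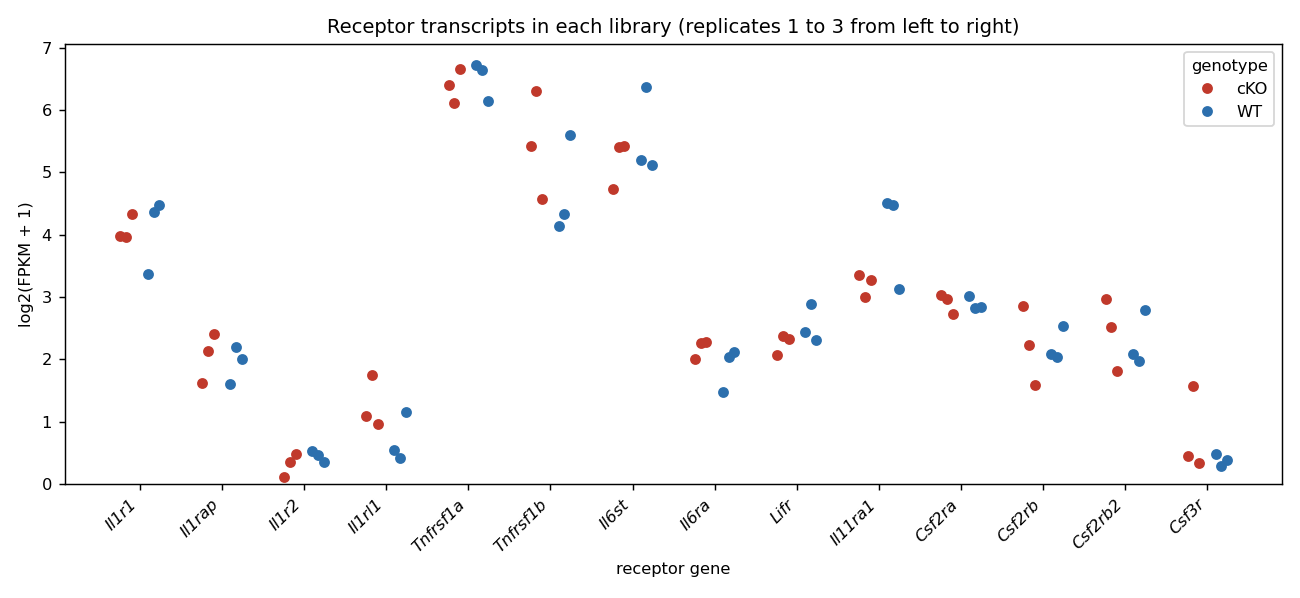
Points give log2(FPKM + 1) of 14 receptor genes in the cKO libraries (red, left of each tick) and WT libraries (blue, right), with replicates 1 to 3 from left to right. The ranges of cKO and WT points overlap for all receptors shown, including Il11ra1 through WT replicate 3.

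Of the genes that process and release these cytokines, 0 of 8 tested passed (limma), with a median log2 difference of 0.27. At an unadjusted p under 0.05 there was 1 of 8, against 6.81% of tested genes. Rhbdf2, whose product iRhom2 brings the TNF-shedding protease ADAM17 to the cell surface, had 18.9 ± 4.10 FPKM in cKO and 11.1 ± 4.78 FPKM in WT libraries (SD, n = 3 each; limma, adjusted p = 0.710). The inflammasome sensor Nlrp3 was listed at 1.39, 12.8 and 0.626 FPKM in cKO replicates 1, 2 and 3 and at 0.960, 0.771 and 1.23 FPKM in WT replicates 1, 2 and 3, so it was high in the same library as Il1b. Its adaptor Pycard was at 0.643 to 1.30 FPKM in cKO and at 1.42 to 2.27 FPKM in WT libraries, without overlap (limma, adjusted p = 0.736), where 5.01% of tested genes lay lower in cKO without overlap. Casp1, the IL-1 beta protease, was below the filter at 0.492 to 0.836 FPKM in cKO and at 0.910 to 1.84 FPKM in WT libraries.

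Of 17 genes of receptor signalling, 0 passed (limma, 0 also at an unadjusted p under 0.05), and their log2 differences ran from -0.21 to 0.58 with a median of 0.04. Jak2, a kinase of gp130 and GM-CSF receptors, was listed at 18.0, 61.4 and 32.7 FPKM in cKO replicates 1, 2 and 3 and at 11.7, 23.3 and 38.1 FPKM in WT replicates 1, 2 and 3 (limma, adjusted p = 0.878). Irak3, an inhibitor of IL-1 receptor signalling, was at 7.22 to 21.2 FPKM in cKO and at 4.57 to 18.7 FPKM in WT libraries. Stat5a, which acts downstream of GM-CSF, was at 7.36 to 7.65 FPKM in cKO and at 7.69 to 10.2 FPKM in WT libraries. It was the 1 gene of the 17 without overlap (limma, adjusted p = 0.884), where 5.01% of tested genes lay lower in cKO without overlap. Traf2, an adaptor of TNF receptors, was at 7.86 to 8.86 FPKM in cKO and at 6.70 to 8.03 FPKM in WT libraries.

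Genes known as targets of gp130 and STAT3 had a median log2 difference of 0.64, and 0 of 9 passed (limma). At an unadjusted p under 0.05 there were 5 of 9, against 6.81% of tested genes. In 5 of 9, Pim1, Cebpb, Bcl3, Junb and Socs3, all cKO values lay above all WT values, against 6.28% of tested genes. Pim1, a serine/threonine kinase, was listed at 51.6, 45.1 and 57.8 FPKM in cKO replicates 1, 2 and 3 and at 18.0, 21.4 and 27.0 FPKM in WT replicates 1, 2 and 3 (log2 difference 1.19, SE 0.22, limma adjusted p = 0.357). It passed as higher without WT replicate 3 (limma, adjusted p = 0.0208), and also without WT replicate 3 and cKO replicate 2 together (limma, adjusted p = 0.0382). Cebpb, a transcription factor of the acute phase response, had 337.2 ± 74.2 FPKM in cKO and 144.7 ± 67.1 FPKM in WT libraries (SD, n = 3 each), and Bcl3, an atypical NF-kB regulator, had 39.3 ± 6.78 FPKM in cKO and 23.1 ± 3.55 FPKM in WT libraries. The AP-1 subunit gene Junb had 165.1 ± 48.5 FPKM in cKO and 81.3 ± 21.1 FPKM in WT libraries (limma, adjusted p = 0.607). Socs3, the feedback inhibitor of gp130 signalling, had 50.0 ± 3.27 FPKM in cKO and 34.3 ± 6.21 FPKM in WT libraries (SD, n = 3 each). The list was drawn up with earlier results for Pim1 and Junb in these data known, so its count is not independent evidence.

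Of 6 genes whose products bind cytokine mRNAs and set their stability, 0 passed (limma), with a median log2 difference of 0.55. At an unadjusted p under 0.05 there was 1 of 6, against 6.81% of tested genes. In this list 1 gene lay higher in cKO without overlap, against 6.28% of tested genes, and 1 lay lower, against 5.01%. Zfp36, which encodes the AU-rich element binding protein tristetraprolin, was the higher one, with 29.1 ± 7.02 FPKM in cKO and 17.7 ± 4.10 FPKM in WT libraries (SD, n = 3 each; limma, adjusted p = 0.678). Elavl1, whose product HuR stabilises such mRNAs, was the lower one, at 13.0 to 13.4 FPKM in cKO and at 13.7 to 15.7 FPKM in WT libraries (limma, adjusted p = 0.908). Zc3h12a, the Il6 mRNA endonuclease regnase-1, was listed at 31.1, 78.8 and 16.2 FPKM in cKO replicates 1, 2 and 3 and at 14.5, 12.0 and 23.0 FPKM in WT replicates 1, 2 and 3, highest where Tnf and Il1b were highest. Zfp36l2 was at 54.9 to 71.4 FPKM in cKO and at 31.0 to 55.2 FPKM in WT libraries, and Zfp36l1 at 50.4 to 94.7 FPKM in cKO and at 34.9 to 92.5 FPKM in WT libraries.

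Other ligands of the same families were mostly low. Of 36 with a row, 12 were tested and 0 passed (limma), with a median log2 difference of 0.11. At an unadjusted p under 0.05 there were 3 of 12, against 6.81% of tested genes. Clcf1, another gp130 ligand, was at 42.9, 33.6 and 39.4 FPKM in cKO replicates 1, 2 and 3 and at 21.2, 16.6 and 23.3 FPKM in WT replicates 1, 2 and 3 (log2 difference 0.90, SE 0.21, limma adjusted p = 0.545). Tnfsf9, the ligand of the T cell co-stimulatory receptor 4-1BB, had 9.79 ± 2.62 FPKM in cKO and 4.98 ± 0.579 FPKM in WT libraries (SD, n = 3 each; limma, adjusted p = 0.607). Il34, a ligand of the CSF1 receptor, was at 3.23 to 5.75 FPKM in cKO and at 0.445 to 3.87 FPKM in WT libraries. Without WT replicate 3, Clcf1 (limma, adjusted p = 0.0498) and Il34 (adjusted p = 0.0314) passed as higher, with 2.47% of all genes higher in that fit. Neither passed without WT replicate 3 and cKO replicate 2 together (limma, adjusted p = 0.0861 for Clcf1 and 0.0539 for Il34). Il18, an IL-1 relative, was at 0.636 to 1.25 FPKM in cKO and at 1.45 to 2.63 FPKM in WT libraries (limma, adjusted p = 0.742). Il10, Il12b and Il23a, named after their values were seen and all below the filter, were highest in cKO replicate 2. There Il10 was at 13.96 FPKM, against 0.152 to 0.276 FPKM in the other cKO libraries and 0 to 0.188 FPKM in WT, and Il12b was at 5.33 FPKM, against 0 to 0.0506 FPKM in the other cKO and 0 to 0.025 FPKM in WT libraries. Il23a was at 0.413, 2.17 and 0.199 FPKM in cKO replicates 1, 2 and 3 and at 0, 0.0913 and 1.12 FPKM in WT replicates 1, 2 and 3.

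Markers of Sertoli and other cell types were read beside the cytokines. In bulk RNA, fewer cells of a type and less RNA per cell cannot be told apart. Of 14 tested macrophage markers, 13 had a lower mean in cKO. Summed over the 15 with a row, they came to 333.4, 181.7 and 268.4 FPKM in cKO replicates 1, 2 and 3, and to 1377, 1120 and 302.9 FPKM in WT replicates 1, 2 and 3. The sum was lowest in cKO replicate 2 and highest in WT replicates 1 and 2, but single markers differed from it. Cd14, the lipopolysaccharide co-receptor and the 1 tested marker with a higher mean in cKO, was at 47.1, 48.4 and 9.45 FPKM in cKO replicates 1, 2 and 3 and at 18.0, 13.3 and 32.6 FPKM in WT replicates 1, 2 and 3. Ptprc, the pan-leukocyte gene, was below the filter, at 0.273 to 0.638 FPKM in cKO and at 0.280 to 0.610 FPKM in WT libraries, and was also highest in cKO replicate 2. Adgre1 was at 6.31, 9.66 and 2.54 FPKM in cKO replicates 1, 2 and 3 and at 12.1, 14.4 and 8.80 FPKM in WT replicates 1, 2 and 3. The part of macrophages in the cytokine differences was not tested. The lysozyme gene Lyz2 was at 37.1 to 69.4 FPKM in cKO and at 66.5 to 647.8 FPKM in WT libraries, and the lysosomal Cd68 at 27.0 to 61.7 FPKM in cKO and at 43.4 to 153.0 FPKM in WT libraries, so no library lacked them. Neutrophil markers, with 3 of 6 analysed here, summed to 3.49 to 7.06 FPKM in cKO and 8.60 to 18.2 FPKM in WT libraries. Mmp8, a neutrophil collagenase, was at 2.31 to 6.83 FPKM in cKO and at 8.32 to 17.7 FPKM in WT libraries. S100a8 was highest, at 2.92 FPKM, in cKO replicate 2. Ngp was at 0.0844, 0 and 0.122 FPKM in cKO replicates 1, 2 and 3 and at 0 in all WT libraries.

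Endothelial markers had a higher mean in cKO for all 7 tested and, over the 9 with a row, summed to 101.0, 62.7 and 58.4 FPKM in cKO replicates 1, 2 and 3 and to 36.3, 31.0 and 62.6 FPKM in WT replicates 1, 2 and 3. Sertoli markers had a higher mean in cKO for 9 of 11 tested and summed to 536.0 to 819.6 FPKM in cKO and to 303.1, 309.9 and 713.4 FPKM in WT replicates 1, 2 and 3. The endothelial genes Cdh5, a cadherin, and Sox18, a transcription factor, were the most abundant of their list: Cdh5 was at 31.6 to 55.6 FPKM in cKO and at 27.0 to 37.5 FPKM in WT libraries, and Sox18 at 7.32 to 17.5 FPKM in cKO and at 2.25 to 6.87 FPKM in WT libraries. The sums of both lists were low in WT replicates 1 and 2, as the cytokines were. The part of these lists in the cytokine differences was not tested. Single Sertoli markers differed from their sum. Inhbb was at 65.7, 85.4 and 6.04 FPKM in WT replicates 1, 2 and 3 and at 15.4 to 32.6 FPKM in cKO libraries. Gata4 was highest in WT replicate 1 and Kitl in WT replicate 2. Fibroblast markers summed to 625.8 to 954.8 FPKM in cKO and 536.5 to 1032 FPKM in WT libraries, and peritubular myoid markers to 626.2 to 1148 FPKM in cKO and to 2900, 2282 and 462.9 FPKM in WT replicates 1, 2 and 3. The collagen genes Col1a1 and Col1a2 led the fibroblast list, Acta2 and Cnn1 the myoid list, and Cyp11a1 and Star the Leydig list. Leydig markers summed to 142.3 to 241.2 FPKM in cKO and 197.1 to 361.8 FPKM in WT libraries. T and NK cell markers summed to 1.08 to 1.73 FPKM in cKO and 0.592 to 1.60 FPKM in WT libraries. Cd8a was at 0, 0.0491 and 0 FPKM in cKO replicates 1, 2 and 3 and at 0 in all WT libraries. The most abundant T and NK cell markers were Trac, at 0.772 to 1.60 FPKM in cKO and at 0.274 to 1.25 FPKM in WT libraries, and Cd4, at 0.0148 to 0.111 FPKM in cKO and at 0.183 to 0.344 FPKM in WT libraries. The mast cell gene Cma1 reached at most 0.183 FPKM in cKO and 0.0941 FPKM in WT libraries. Among the Sertoli markers, Clu was at 335.3 to 451.9 FPKM in cKO and at 79.2 to 475.8 FPKM in WT libraries and Cldn11 at 59.4 to 148.5 FPKM in cKO and at 20.3 to 88.2 FPKM in WT libraries, while Amh and Fshr were below the filter.

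**Figure D5:**
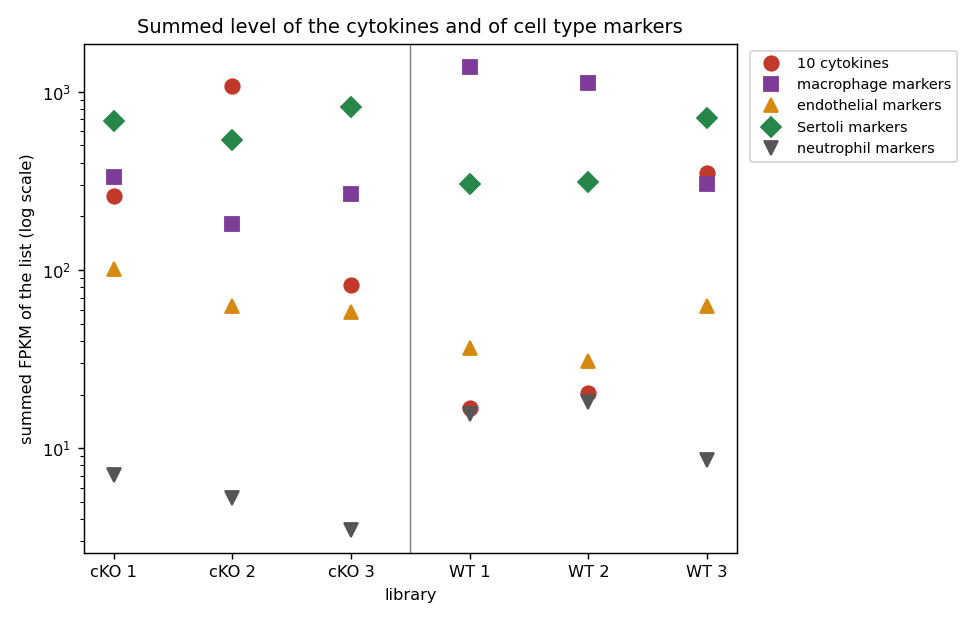
The plot gives, on a log axis, the summed FPKM of the 10 cytokines and of 4 marker lists in each cKO library (left of the line) and WT library (right). The cytokine sum runs from 16.9 in WT replicate 1 to 1078 in cKO replicate 2, where the macrophage sum is at its lowest, 181.7.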

How the data were processed

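RNA of primary mouse Sertoli cells was sequenced in 3 cKO and 3 WT libraries, grouped by their titles. The deposited FPKM values, 1 per gene and library, were made by the authors with FastQC, HISAT2 2.1.0 and build mm8 named per the submitters' processing notes. No label names the unit: FPKM was inferred because a value times its gene's exonic length (GENCODE M21) came out as whole fragments, within 0.02 times the fragment number, for 99.0% to 99.4% of values of up to 10 fragments in single-exon genes. Depth and the members' fragment numbers follow from this, and cover counting error only. How fragments were counted, with which annotation and strand, is not given in the sources used here. Overlapping antisense genes cannot be separated. Symbols matched 28932 of 29275 gene identifiers.

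The 12284 genes reaching 1 FPKM in 3 or more of 6 libraries were fitted on log2(FPKM + 1), which understates changes of low genes, by limma 3.58.1 in R 4.3.3 (genotype as sole term, eBayes with a trend, two-sided, Benjamini-Hochberg over these genes, threshold 0.05). Genes below the filter were read from the same model over all 29275 genes. With 3 against 3, an exact permutation test cannot go below 0.1. The labels call the replicates biological without naming separate animals, so a p-value here reflects only how these libraries vary. The fit was tested on simulated data, where it recovered large changes and missed small ones, so a gene that did not pass is not shown to be unchanged. Python 3.11.15 made tables and figures.

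The members and lists were chosen with earlier results of these data known. Named genes were all members, up to 4 genes of each list with the smallest p and a group mean of at least 1 FPKM, the members' receptor chains, the 2 most abundant markers of each list, and the 3 genes most like each of the 3 most abundant members. Il10, Il12b, Il23a, Socs3, Elavl1, Cd14, Ptprc, Adgre1 and Inhbb were added after their values were seen. So were the markers named for a 0 or a highest value. Alternatives were other filters, pseudocounts, scalings, a block for the replicate number, a threshold of 0.1 and left-out libraries.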

Additional observations from a re-analysis of the deposited data

How the results depend on the processing

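The 10 members kept a higher log2 mean in cKO in the 11 alternatives that can change it (other pseudocounts, scalings and left-out libraries), and 6 of these 110 values passed the threshold, all without WT replicate 3. The count of members past the threshold was 0, and with 1 library left out it ranged from 0 to 3. It was 3 without both cKO replicate 2 and WT replicate 3, an alternative chosen after seeing the data. The count of all genes past the threshold was 2. It was 0 without the filter on low values and 0 with the replicate block, ranged from 0 to 478 with 1 library left out, and was 272 without both libraries. The median log2 difference of all genes was 0.02 with median-ratio and 0.00 with quantile scaling, beside 0.08 without either, and the members' log2 differences ran from 0.80 to 2.89 under these scalings. The pseudocount moved them more. With a pseudocount of 5 and of 0.1 they were 1.02 and 3.35 for Csf2, 0.73 and 2.48 for Il11, 0.84 and 2.08 for Il33, 1.05 and 2.19 for Il6, 1.88 and 3.71 for Il1b, and 1.88 and 3.87 for Csf3. Tnf had 2.05 and 3.39, Il1a 1.51 and 2.35, Il1rn 0.69 and 1.06, and Lif 1.64 and 1.97. Leaving out cKO replicate 2 lowered Il1a to 0.52, Il1rn to 0.19, Tnf to 0.81 and Csf2 to 0.37. Leaving out WT replicate 1 gave 0.60 for Il33, 0.87 for Il6 and 1.41 for Lif, and leaving out WT replicate 2 gave 0.65 for Il11. Which member differed most also changed: Csf3 on all 6 libraries (2.91, with Tnf at 2.84), and Tnf without cKO replicate 1 (3.78, with Csf3 at 2.93). The cause of these shifts was not tested. Same-numbered cKO and WT libraries had deviations from their group means correlated at 0.14, 0.03 and -0.21. Only cKO replicate 1 correlated best with its own number, and the largest value was 0.48, for cKO replicate 3 with WT replicate 2. Deviations within a group of 3 are tied to each other, so these values cannot exclude a pairing by number. With the replicate block 0 members passed. Depth limits only the lowest values, such as Csf2 in WT replicates 1 and 2. With the stricter filter of 5 FPKM, 8 members were left.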
